A study of Mus musculus with 4 samples.

Results

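Livers of fed pregnant mice were compared with livers of fed fetuses, gene by gene, on 4 two-colour microarrays. All animals were C57BL/6J mice, and each RNA sample was a pool of 5 to 10 animals. The control animals had chow and water freely available and are called fed here, and the other pools came from food-deprived animals. The comparison used the 4 channels that held control RNA: fed fetal liver on 2 arrays and fed maternal liver on the other 2. On the arrays numbered 1 the control RNA carried the dye Cy3 and on those numbered 2 the dye Cy5. No array held maternal and fetal RNA together, so the level of a gene in the mother minus its level in the fetus was taken between arrays of the same dye orientation, once for the arrays numbered 1 and once for those numbered 2. The sources used here do not give the day of gestation, the sex of the fetuses or the length of the food deprivation, nor do they settle whether the 2 arrays of a stage held the same RNA pool. The array held probes for 27670 gene names, and the 17504 genes that were well above background in the control channel on both arrays of at least 1 stage were measured and are the genes described.

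The fetal liver is the main site of blood formation before birth. Red cell precursors, granulocytes, megakaryocytes and B cell precursors grow there among immature hepatocytes, which secrete the fetal plasma proteins alpha-fetoprotein and albumin. After birth blood formation moves to bone marrow and spleen, and the hepatocyte takes on nitrogen disposal, glucose release, bile acid synthesis and the removal of foreign compounds. The pregnant mother's liver is an adult female liver that also faces the hormones and nutrient demand of pregnancy.

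The control channels had 62.5% and 69.7% of gene spots well above background in the fetus and 54.3% and 63.6% in the mother, and no gene spot was saturated. The difference between mother and fetus varied between the orientations with an SD of 0.24 on the log2 scale, and the orientations' differences had a Pearson correlation of 0.96 across genes, which are not independent replicates. The dye-swapped pair of arrays of a stage was counted as 1 sample, so no significance test was possible, and the spread between orientations does not hold the spread between pools of other animals. A gene was called when its mean difference was at least 2-fold and each orientation gave at least 1.5-fold the same way. All levels and differences below are on the log2 scale and the value from the arrays numbered 1 is given first. The number of arrays limits the precision.

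The tissue labels were checked against sex-linked and liver genes. Xist, the RNA of the inactive X chromosome, was at 8.87 and 9.44 in the fetus and at 11.52 and 11.69 in the mother. The Y-linked genes Eif2s3y (10.05 and 10.26), Ddx3y (9.02 and 9.31) and Kdm5d (7.32 and 7.21) were well above background in the fetus and on no array of the mother. The fetal levels were at least 18.1-fold higher for Eif2s3y, at least 9.39-fold for Ddx3y and at least 2.41-fold for Kdm5d, whose call was lost with the 75th percentile scaling. The other measured Y-linked genes differed less: Uty was at 6.25 and 6.33 in the fetus and not well above background in the mother, while Zfy1 was dim in both, well above background on all 4 arrays and slightly higher in the mother (6.57 and 6.53) than in the fetus (6.34 and 6.35). The Zfy1 probe thus gave signal in the mother, where no Y chromosome is expected, and the probes of the other 4 Y-linked genes did not. Alb, which encodes albumin, was well above background on all 4 arrays, at 15.48 and 16.03 in the fetus and 15.20 and 16.05 in the mother.

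Of the 17504 measured genes 1840 (10.5%) were called higher in the mother and 2069 (11.8%) higher in the fetus. The stricter mean of 8-fold was passed by 189 genes higher in the mother (1.08%) and 309 higher in the fetus (1.77%). The median difference over all measured genes was 0.025. With the channels scaled to their 75th percentile the median of all genes was 0.285, and 57.1% of calls were then higher in the mother instead of 47.1%. There were 1060 genes well above background on both fetal arrays and on no maternal one, of which 198 were called, and 139 genes with the reverse, of which 58 were called. The background of every count of a gene list below is the share of all measured genes, 10.5% and 11.8%.

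**Figure D1:**
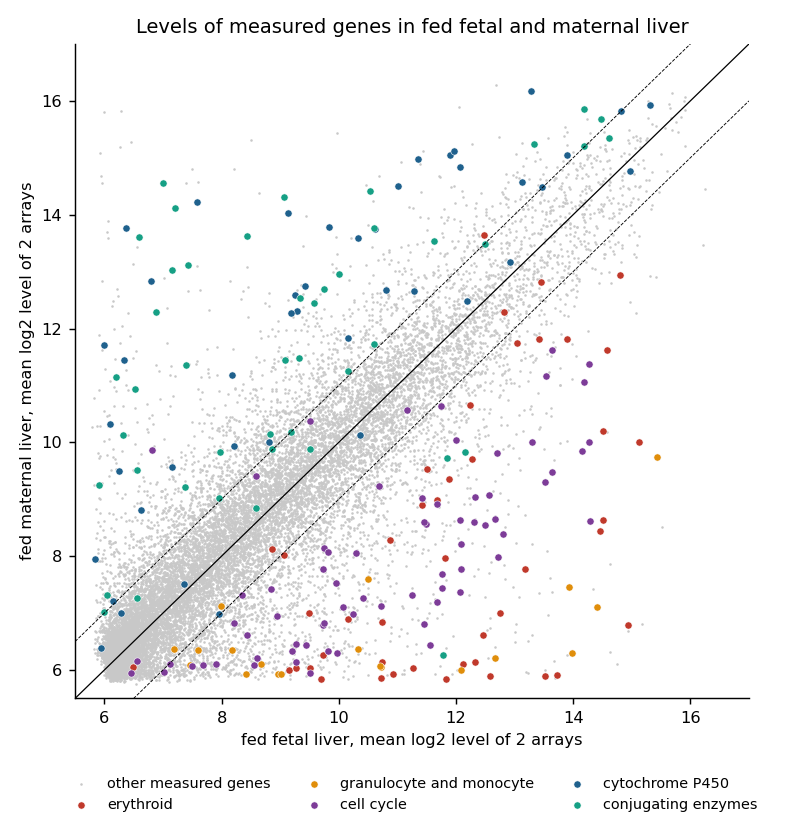
Mean log2 level in fed fetal liver (horizontal) against fed maternal liver (vertical), 1 point per measured gene, with the line of equal level and dashed lines at 2-fold. Erythroid, granulocyte and cell cycle genes lie mostly below the lines, and cytochrome P450 and conjugating enzyme genes mostly above.

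The 10 largest differences toward the fetus were in genes of red cells, granulocytes and fetal growth. Eraf, the file's name for the chaperone of free alpha-globin, was at 14.42 and 15.06 in the fetus and at 6.08 and 6.12 in the mother, a 399-fold difference from a maternal level well above background on 1 of 2 arrays. The imprinted RNA H19 was at 15.22 and 15.14 against 6.65 and 6.95 (333-fold), and its neighbour Igf2, the fetal insulin-like growth factor, at 14.84 and 15.02 against 6.79 and 6.59 (302-fold). The anion exchanger of the red cell membrane, Slc4a1, was at 15.15 and 14.73 against 6.77 and 6.81 (285-fold). In each of these genes both fetal levels lay far above both maternal ones, which follows from choosing the largest differences. Dlk1, a surface protein of hepatoblasts, was at least 208-fold higher in the fetus, the Rh blood group gene Rhd at least 209-fold and the erythroid nuclear protein gene Hemgn at least 185-fold, since none of them was well above background in the mother. These bounds set the maternal level at the higher of the measured value and the lowest level called well above background. They are of the brightest probe, and the weakest measured probe of Hemgn gave -1.52. The others were Ltf, encoding lactoferrin of neutrophil granules (206-fold), and the stefin family genes Cstdc6 (322-fold) and Csta2 (197-fold). The stefin probes can cross-hybridise within their family, so the share of each member is uncertain. Just below these, the protease inhibitor gene A2m was at least 149-fold higher in the fetus on its brighter probe (-7.28), while its other measured probe gave -2.48. The remaining genes seen in the fetus alone with the largest bounds were Stfa2l1 (at least 182-fold), Kel, a blood group protease (at least 99.2-fold), the neutrophil granule gene Ngp (at least 67.1-fold) and the erythroid long non-coding RNA Redrum (at least 62.5-fold).

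The largest differences toward the mother were in secreted proteins and detoxifying enzymes of the adult liver. The major urinary protein genes, which encode pheromone carriers secreted by the liver, led: Mup1 was at 5.98 and 6.00 in the fetus and at 15.72 and 15.88 in the mother (899-fold), and Mup3 at 6.30 and 6.28 against 16.10 and 15.53 (737-fold). The other measured probe of Mup3 gave 3.75. Mup4 was 452-fold higher and Mup5 at least 388-fold higher in the mother. Hamp2, a hepcidin family gene, was at 6.18 and 6.34 against 15.20 and 15.16 (484-fold). The methyltransferase genes Inmt (189-fold) and Nnmt (128-fold), the fatty acid hydroxylase gene Cyp4f14 (167-fold) and the retinal dehydrogenase gene Aldh1a1 (159-fold) were also among them. Mup1 was well above background on 1 of the 2 fetal arrays, so its fetal level sits at the edge of what was measured. The near-identical Mup genes share probes' targets, and the level of each is uncertain. Among genes seen in the mother alone, the largest bounds after Mup5 were those of the transporter genes Slc22a26 (at least 62.5-fold) and Slc22a7 (at least 50.9-fold), the caffeine-metabolising P450 gene Cyp1a2 (at least 52.6-fold), an immunoglobulin heavy chain entry, Igh-VJ558 (at least 21.4-fold, with probes from -0.28 to 4.47), Cyp2d13 (at least 20.4-fold), Nat8f2 (at least 14.2-fold) and the retinol dehydrogenase gene Rdh16 (at least 14.1-fold).

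**Figure D2:**
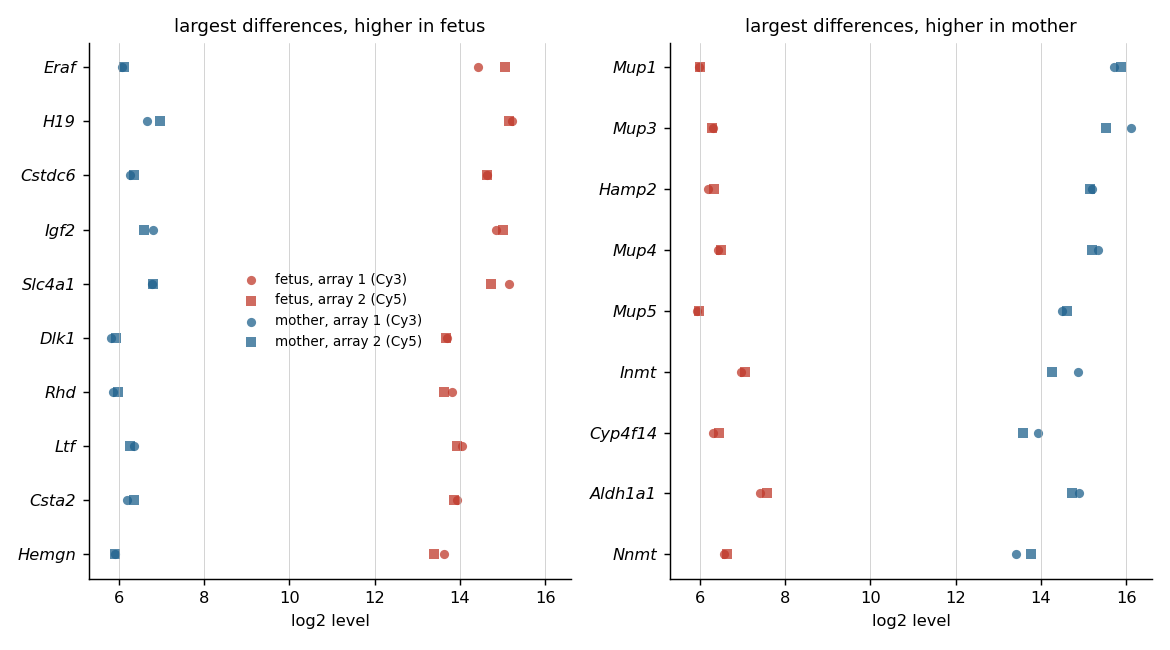
Log2 level on each of the 4 control channels (red fetus, blue mother, circles arrays numbered 1, squares arrays numbered 2) for the 10 genes with the largest mean difference toward the fetus and for 9 of those with the largest toward the mother. The gap is between 128-fold (Nnmt) and 899-fold (Mup1), and that the levels of the stages do not overlap follows from choosing the largest differences.

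Red cell genes were far higher in the fetus. Of 45 measured erythroid genes 40 (88.9%) were called higher in the fetus and 1 higher in the mother, with a median difference of -3.47, and 12 were well above background in the fetus and on no array of the mother. Besides Slc4a1, Rhd, Hemgn and Kel the largest was Trim10 (-6.19 and -6.20), which acts in terminal red cell differentiation. Alas2, the first enzyme of haem synthesis in red cells, differed by -4.30 and -4.31, the erythropoietin receptor gene Epor by -3.90 and -3.78, and the factors Gata1 (-3.47 and -3.48) and Klf1 (-4.21 and -3.56) by similar amounts. The gene of this list higher in the mother was Tfr2 (1.31 and 1.03), the iron-sensing transferrin receptor that hepatocytes also make. In pooled tissue, fewer cells of a type and less RNA per cell cannot be told apart. The promoters of Alas2 and Rhd are shown because both genes follow this pattern and each holds the motif AGATAA, the site letters of GATA factors, in capitals (on either strand). They are the 250 bases before the start in RefSeq's GRCm38.p6 build, on the + strand at chrX:150547167-150547416 for Alas2 and chr4:134864286-134864535 for Rhd.
Alas2: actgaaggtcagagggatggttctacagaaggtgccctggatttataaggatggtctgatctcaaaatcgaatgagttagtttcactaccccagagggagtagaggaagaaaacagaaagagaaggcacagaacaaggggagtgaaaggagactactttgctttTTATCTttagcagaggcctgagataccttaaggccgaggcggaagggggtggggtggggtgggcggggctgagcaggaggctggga
Rhd: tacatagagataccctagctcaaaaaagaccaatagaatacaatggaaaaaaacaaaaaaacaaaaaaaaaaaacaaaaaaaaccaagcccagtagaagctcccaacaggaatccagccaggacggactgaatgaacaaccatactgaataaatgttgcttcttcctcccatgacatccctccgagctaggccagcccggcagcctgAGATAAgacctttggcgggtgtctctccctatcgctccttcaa
The motif starts 86 bases before the start of Alas2 and 43 before that of Rhd. AGATAA on either strand was in 8 of the 32 erythroid genes that had a promoter in the table, against 10.3% of the 27025 promoters of the same length in it and 6.93% of those of measured genes. It was not particular to red cell genes, since it was also in 22.2% of 27 adult hepatocyte genes and 8 of 47 P450 genes. A match of letters is a description and not a binding site.

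All 5 measured globin genes were called higher in the fetus, with a median of -2.02 and means from -3.27 to -1.59, within the range of the erythroid list. Hba-a1, an adult alpha chain, was at 16.11 and 16.32 in the fetus and at 13.55 and 13.38 in the mother, and Hbb-bt, the adult beta chain that the file names Hbb-b1, at 16.03 and 16.48 against 14.62 and 14.29. Both were thus well above background in the mother too. Of the embryonic chains, Hbb-y was at 10.08 and 9.87 against 6.72 and 6.69, Hbb-bh1 at 8.12 and 8.36 against 6.36 and 6.10, and Hba-x at 7.24 and 7.57 and not well above background in the mother (at least 2.72-fold). The adult alpha genes are near-identical to each other, and so are the adult beta genes. The copies within each of these groups cannot be told apart by these probes.

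White cell and platelet lineages had the same direction. Of 19 granulocyte and monocyte genes 17 (89.5%) were higher in the fetus and none in the mother (median -3.09). Mpo, the peroxidase of primary granules, was at 14.50 and 14.32 against 7.13 and 7.07, and Ltf, Chil3 (-6.61 and -6.34), Camp (-6.82 and -6.07) and Ngp had the other large differences. The alarmin gene S100a8 lost its value on 1 array to an outlier flag; the other orientation gave 14.08 in the fetus and 7.06 in the mother. Of 24 megakaryocyte and mast cell genes 16 were higher in the fetus and none in the mother (median -1.57), led by the platelet chemokines Ppbp (-5.63 and -5.41) and Pf4 (-5.38 and -5.55), Treml1 (-5.48 and -5.25) and the platelet receptor gene Gp9 (-3.57 and -3.97). Itgb3 was also called (-3.28 and -3.38), but with flagged spots kept another probe stood for the gene and gave 2.18. The mast cell genes went 2 ways. Cpa3 (-1.08 and -1.13), Mcpt8 (-0.91 and -1.12) and Hdc (-1.15 and -1.46) were called higher in the fetus. Ms4a2 (-0.50 and -0.14), Cma1 (-0.09 and -0.69), Mcpt4 (-0.01 and 0.10) and Fcer1a (0.31 and 0.15) were not called.

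Among 26 lymphocyte genes 11 were higher in the fetus and 3 in the mother. The surrogate light chain genes Vpreb1 (-4.90 and -4.62), Vpreb3 (-4.19 and -4.37) and Igll1 (-3.12 and -3.09), the receptor gene Cd79b (-2.95 and -2.90) and the recombinase gene Rag1 (-2.67 and -2.87) mark B cell precursors and were all fetal. Jchain, which joins secreted antibodies and marks plasma cells, was higher in the mother (1.43 and 1.28) and not well above background in the fetus. The T cell kinase gene Zap70 (4.28 and 4.36) and the recombination enzyme gene Dntt (3.70 and 3.65) were also higher in the mother. Another T cell kinase gene, Lck (-1.19 and -1.28), was fetal, while the T cell genes Cd3d (-0.08 and 0.23) and Cd3g (0.08 and 0.18) were not called. Gzma (-2.16 and -2.35), Gzmb (-1.37 and -1.60) and Nkg7 (-1.44 and -1.74) were fetal too. In the stem and progenitor list 5 of 16 were higher in the fetus, with Myb (-4.74 and -4.42, at least 22.8-fold), Spn (-3.97 and -3.96), Cd34 (-1.90 and -1.90), Lin28b and Slamf1, and Hlf was higher in the mother (1.03 and 1.03).

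The supporting cells of the liver did not share one direction. Of 24 macrophage and Kupffer cell genes 6 were higher in the fetus and 4 in the mother. The adhesion gene Vcam1 (-3.08 and -3.02), the scavenger receptor gene Marco (-2.37 and -2.32), the haem-degrading enzyme gene Hmox1 (-2.02 and -2.13) and Spic (-1.88 and -1.49), a factor of iron-recycling macrophages, were fetal. The haemoglobin scavenger receptor gene Cd163 (1.65 and 3.14), Vsig4 (2.25 and 1.78), Folr2 (1.22 and 1.35) and Cd14 (1.35 and 1.08) were maternal. The Kupffer cell lectin gene Clec4f (0.57 and 0.23) and the macrophage gene Adgre1 (-0.75 and -0.75) were not called. Of 27 endothelial genes 23 were not called, Pecam1 differed by -0.16 and -0.09, Lyve1 was fetal (-2.59 and -2.35 on its brighter probe, -0.16 as the mean on the other), and the sinusoidal lectin gene Clec4g (1.67 and 1.97), Ptprb and Fcgr2b were maternal. Of 27 stellate cell and fibroblast genes 9 were fetal, among them the collagen genes Col1a1 (-3.27 and -3.15), Col5a1 (-3.28 and -3.07) and Col1a2 (-2.37 and -2.41) and the filament gene Vim (-2.26 and -2.39), and the pericyte gene Rgs5 was maternal (2.52 and 2.36). The other probe of Col5a1 gave -0.16, and the weakest of Col1a1 gave -0.12. Of 18 bile duct genes 4 were fetal, led by the glutamyl transferase gene Ggt1 (at least 7.91-fold), and 3 maternal, led by the bile acid uptake gene Slc10a2 (at least 7.80-fold). Onecut1, also called (0.62 and 1.38), gave -0.72 as the mean over its probes.

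Signs of neighbouring tissue were looked for in both stages. Of 37 genes of other organs 20 were measured, 8 of them higher in the fetus and 1 in the mother. The fetal ones included the skeletal muscle genes Tnnc2 (-2.73 and -2.78), Myh8 (-2.51 and -2.85) and Mylpf (-1.93 and -2.25), whose fetal levels lay between 8.38 and 9.20. The intestinal lipid carrier gene Fabp2 was higher in the mother (2.62 and 2.54). The summed level of the list was 4.21 and 4.6 in the fetus and 6.17 and 6.51 in the mother, in units of 1000 intensity units. Fabp2 carried the maternal sum: over the other 19 genes it was 3.46 and 3.79 in the fetus and 1.59 and 1.78 in the mother, the opposite direction. Of 24 placenta and yolk sac genes 9 were measured, none called higher in the fetus and 1, Lgals9 (mean 1.01), higher in the mother, a call that 3 alternatives lost. The placental genes Tpbpa, Ctsj, Ctsq and Gcm1 were not well above background in either stage.

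**Figure D3:**
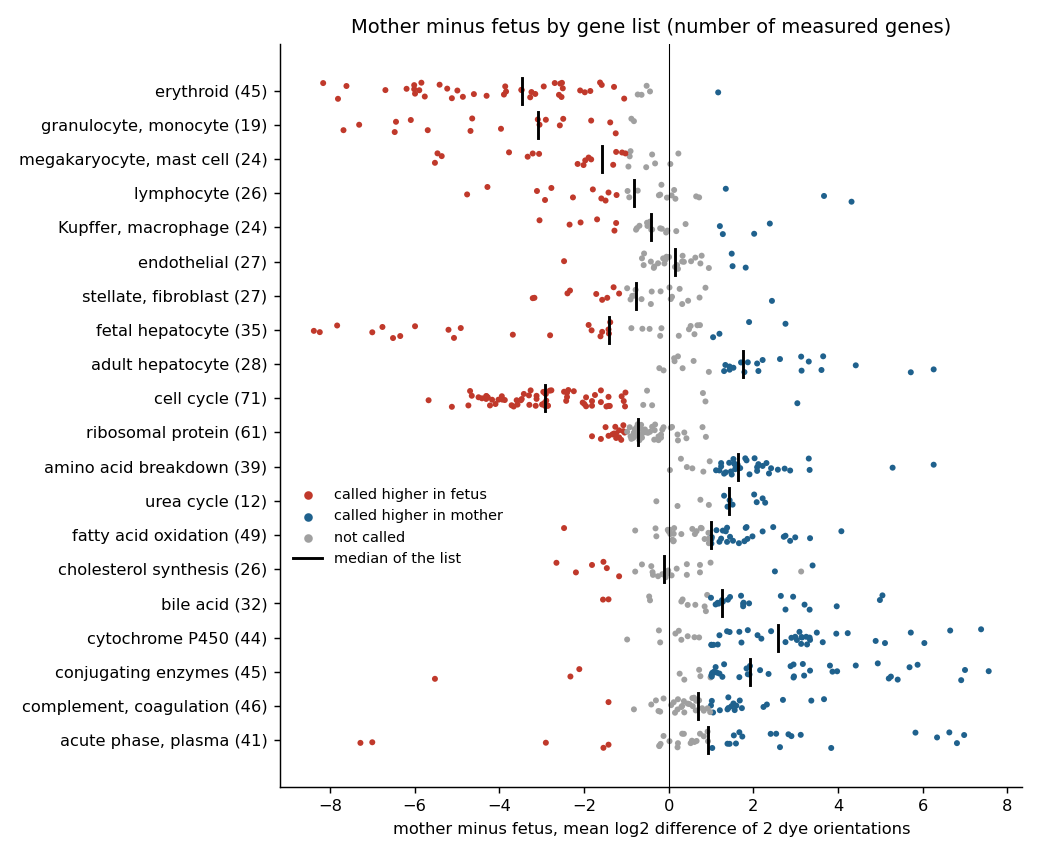
Mean log2 difference, mother minus fetus, of each measured gene in 20 of the gene lists, with red for genes called higher in the fetus, blue for the mother, grey for no call and a bar at the list's median. Medians run from -3.47 for the erythroid list to 2.59 for the cytochrome P450 list.

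Cell division genes were almost uniformly fetal. Of 71 measured cell cycle genes 65 (91.5%) were called higher in the fetus and 1 in the mother, with a median of -2.92. Mki67, the marker of cycling cells, was at 14.42 and 14.15 in the fetus and at 8.56 and 8.67 in the mother (50.8-fold). The methylation maintenance gene Uhrf1 (-5.40 and -4.84), the cyclin gene Ccna2 (-4.65 and -4.81), the replication helicase gene Mcm5 (-4.79 and -4.60) and the spindle gene Nusap1 (-4.85 and -4.45) followed. The maternal levels of these genes stayed between 6.27 and 8.67. They are the largest fetal calls of the list, so levels without overlap follow from the choice. E2f8 was the call toward the mother (3.04 and 3.04), but its probes disagreed: the other measured probe gave -2.27, and the scanner's processed signals turned the sign (-3.24). Ccnd1, the cyclin through which growth factors act, was not called and stood slightly on the maternal side (0.91 and 0.83). Among 20 genes that restrain the cycle 5 were fetal, including Rbl1 (-2.44 and -2.45), Rb1 (-2.30 and -2.24), Cdkn2d (-1.51 and -3.37) and Gadd45a (-2.56 and -1.68), and Gas6 (2.09 and 1.57) and Tob1 (1.67 and 1.74) were maternal. The imprinted inhibitor gene Cdkn1c was flagged on 1 array and gave 12.9 in the fetus and 7.78 in the mother on the other pair. The promoter of Cdk1, the kinase of mitotic entry (-3.14 and -3.15), is shown for its 3 copies of CCAAT, the letters bound by the factor NF-Y, in capitals and here all on the opposite strand. It is at chr10:69352913-69353162 of GRCm38.p6 on the - strand.
Cdk1: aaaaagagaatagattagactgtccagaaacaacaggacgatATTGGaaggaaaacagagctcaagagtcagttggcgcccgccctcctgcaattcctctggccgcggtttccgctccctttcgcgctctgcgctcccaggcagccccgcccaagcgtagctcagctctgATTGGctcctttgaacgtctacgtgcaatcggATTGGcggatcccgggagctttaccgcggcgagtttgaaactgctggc
The copies start 208, 80 and 48 bases before the start. CCAAT on either strand was in 67.9% of the 56 cell cycle genes with a promoter in the table, against 34.5% of all promoters and 36.0% of those of measured genes. The share was 51.9% in adult hepatocyte and 46.2% in fetal hepatocyte genes.

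Hepatocyte genes split by stage. Of 36 adult hepatocyte genes 28 were measured, 20 of them (71.4%) called higher in the mother and none in the fetus (median 1.75). Tdo2, the first enzyme of tryptophan breakdown, was at 6.13 and 6.13 in the fetus and at 12.40 and 12.39 in the mother (76.7-fold, with the fetal level well above background on 1 of 2 arrays). The glucuronosyl transferase gene Ugt2b1 (4.29 and 4.55), Cyp1a2, the ketosteroid reductase gene Akr1c6 (3.84 and 3.38) and Pck1, the rate-limiting enzyme of glucose synthesis (3.60 and 3.71), were next. Alb (-0.28 and 0.03), Ttr, a thyroid hormone carrier (-0.14 and -0.30), and the fibrinogen chain genes Fga, Fgb and Fgg did not pass the call, the fibrinogen genes with differences from -0.43 to 0.02. The list lost 7 members to outlier flags, mostly bright spots. In the orientation that remained, Tat (9.44 and 13.76), Hal (10 and 13.43), Sds (7.78 and 11.47) and Cyp3a11 (11.84 and 15.69) were each higher in the mother, the fetal value given first.

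Of 35 genes of the fetal hepatocyte list 20 (57.1%) were higher in the fetus and 4 in the mother (median -1.42). H19, Igf2, Dlk1, Afp and Scd2 led. Afp, which encodes the fetal counterpart of albumin, was at 15.42 and 15.62 in the fetus and at 8.47 and 8.55 in the mother (128-fold). Members called maternal were Cyp3a16 (2.43 and 3.1), the T-box factor gene Tbx3 (1.93 and 1.86), Ahcy and Sall4. Cyp3a16 belongs to a P450 family whose members share sequence, and the probes of Sall4 ran from -0.86 to 1.05. The promoters of the neighbouring genes Afp and Alb are shown because 1 of the pair differed 128-fold and the other 1.09-fold, and each holds 1 copy of GTTAAT, letters found in promoters of many liver genes, in capitals. Both lie on the + strand of GRCm38.p6, at chr5:90490464-90490713 for Afp and chr5:90460620-90460869 for Alb.
Afp: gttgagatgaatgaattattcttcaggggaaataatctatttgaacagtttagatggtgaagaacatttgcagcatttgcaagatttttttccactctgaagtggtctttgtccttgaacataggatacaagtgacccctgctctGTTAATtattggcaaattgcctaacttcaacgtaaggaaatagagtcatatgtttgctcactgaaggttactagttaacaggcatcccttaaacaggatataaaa
Alb: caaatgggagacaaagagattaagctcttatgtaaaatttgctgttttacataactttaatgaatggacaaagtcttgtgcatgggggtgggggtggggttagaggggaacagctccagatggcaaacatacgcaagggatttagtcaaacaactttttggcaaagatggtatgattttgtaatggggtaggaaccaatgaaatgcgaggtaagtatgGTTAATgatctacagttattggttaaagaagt
The motif starts 105 bases before the start of Afp and 32 before that of Alb, and the aligned windows were identical at 48.5% of 270 positions. GTTAAT on either strand was in 41.2% of the 34 acute phase and plasma protein genes with a promoter in the table, in 25.9% of 27 adult hepatocyte genes, in 7.69% of 26 fetal hepatocyte genes and in none of the 32 erythroid genes, against 6.52% of all promoters and 4.66% of those of measured genes. It was in 6.16% of the promoters of genes called higher in the mother and 4.15% of those called higher in the fetus.

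Imprinted genes were more often fetal than maternal. The list of IGF axis and growth hormone genes was split, with 7 of 25 measured genes fetal and 7 maternal (median 0.34). Of 26 imprinted genes, of which 1 parental copy is silent, 14 were higher in the fetus and 1 in the mother (median -1.09). After H19, Igf2 and Dlk1 came Grb10, an inhibitor of insulin signalling, at 13.64 and 13.65 against 7.39 and 7.34 (77.9-fold), and the non-coding RNA Meg3 (-5.98 and -5.70). The weakest measured probe gave -1.87 for Grb10 and -1 for Meg3. The transporter gene Slc22a18 was the maternal one (2.70 and 3.14). In the IGF axis Igf2 was fetal, while Igf1, the growth factor made by the postnatal liver under growth hormone, was at 9.28 and 9.60 in the fetus and at 13.96 and 13.99 in the mother (23.1-fold). The growth hormone receptor gene Ghr (3.85 and 3.14), the prolactin receptor gene Prlr (4.41 and 4.14), Igfals, which stabilises circulating IGF (3.29 and 3.41), and Igfbp4 (2.70 and 2.03) were maternal with it. The receptor gene Igf1r (-2.23 and -2.04) was fetal on its brightest probe but not as a mean over probes, and Igfbp1 was called fetal with orientations that differed widely (-2.25 and -1.01) and lost the call with the 75th percentile scaling. The insulin receptor gene Insr (0.15 and 0.17) and Igfbp2 (0.50 and 0.18) were not called.

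In the LIN28, HMGA and IGF2BP group, RNA-binding and chromatin proteins of immature cells, 10 of 19 measured genes were fetal and 2 maternal (median -1.57). Igf2bp3 was at 9.82 and 9.58 in the fetus and at 5.90 and 6.13 in the mother (12.8-fold), Igf2bp1 differed by -1.88 and -1.77, Igf2bp2 by -1.55 and -1.67, Hmga1 by -1.74 and -2.04 and Lin28b by -1.56 and -1.58. Lin28b was well above background on both fetal arrays and on no maternal one (at least 2.90-fold), but its other probes were weaker and its mean over probes lost the call. Hmga2 (-0.76 and -0.99), Lin28a (-0.45 and -0.45) and Sox11 (-0.52 and -0.72) lay on the fetal side without a call. The chromatin genes Ezh2 (-2.67 and -2.68), Dnmt1 (-2.67 and -2.10) and Hells (-2.07 and -1.86) were fetal, Dnmt3a (-0.69 and -0.98) and Dnmt3b (0.14 and 0.01) were not called, and the demethylase gene Tet1 was maternal (1.94 and 2.43). Mycn was called fetal (-1.60 and -1.66), with 1 of its 2 probes at 0.03.

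Secreted plasma proteins were unequal. Of 41 acute phase and plasma genes 19 (46.3%) were maternal and 5 fetal (median 0.92). The murinoglobulin genes Mug1, at 8.56 and 8.44 in the fetus and 15.24 and 15.37 in the mother, and Mug2 (126-fold), and the orosomucoid genes Orm2 (99.1-fold) and Orm1 (80.9-fold) had the largest maternal differences, with the serum amyloid gene Saa2 at 56.8-fold. The murinoglobulins and A2m encode inhibitors of the same alpha-macroglobulin family, and in these pools A2m was the fetal one. Lcn2 (-2.76 and -3.03), which neutrophils also make, the thyroxine carrier gene Serpina7 (-1.48 and -1.60) and Apcs (-1.48 and -1.36) were fetal with Afp. Orm and Saa genes are close paralogs that probes may not separate. Of 46 complement and coagulation genes 18 (39.1%) were maternal and 1 fetal (median 0.68). The vitamin K-dependent factors F7 (3.52 and 3.22) and F9 (2.74 and 2.67), the complement regulator gene C4bp (3.46 and 3.89), C8g (2.47 and 2.17) and F5 (2.36 and 2.12) led, while 27 of the list were not called.

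Nitrogen metabolism was maternal. Of 39 measured amino acid breakdown genes 33 (84.6%) were higher in the mother and none in the fetus (median 1.63), and all 39 means were above 0. Csad, which makes taurine, was outside these 39 because of a flag and was lower in the mother in its remaining orientation (-1.58). After Tdo2 came Ido2 (5.29 and 5.28, with its other probe at 0.86), the pyrimidine breakdown gene Dpyd (3.33 and 3.33), Oat (3.08 and 3.53) and Amdhd1 of histidine breakdown (3.02 and 2.71). Of 12 urea cycle and related genes 8 were maternal and none fetal (median 1.42). Otc, which makes citrulline, was at 11.28 and 11.10 against 13.62 and 13.32 (4.85-fold), the ornithine carrier gene Slc25a15 differed by 1.99 and 2.17, the mitochondrial glutaminase gene Gls2 by 2.55 and 1.89, Car5a by 2.06 and 1.98, and Nags, which makes the activator of the cycle, by 1.73 and 1.30. Cps1, the entry enzyme, was 1.93-fold higher in the mother (1.29 and 0.62) and missed the call. Arg1 was flagged on 1 array and gave 13.1 against 14.21 in the remaining orientation.

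Among isozymes the broadly expressed forms were the more often fetal. Of 28 broadly expressed isozyme genes with a liver counterpart 13 (46.4%) were fetal and 1 maternal. Of 22 genes listed as liver isozymes 7 were maternal and 2 fetal. Hk1, a hexokinase of high affinity, was at 12.49 and 12.04 in the fetus and at 8.06 and 8.40 in the mother (16.4-fold), Hk2 differed by -2.66 and -2.27 and Hk3 by -1.46 and -1.05. The transporter genes Slc2a1 (-3.36 and -3.32) and Slc2a3 (-3.18 and -3.39) were fetal, and the liver's own Slc2a2 (0.35 and 0.24) was not called. The same held for pyruvate kinase, with Pkm fetal (-1.90 and -2.49) and Pklr not called (-0.39 and -0.29), and for glycogen phosphorylase, with Pygb fetal (-2.17 and -2.31) and Pygl not called (-0.28 and -0.47). PEP carboxykinase had calls in both directions, Pck2 being fetal (-2.86 and -3.11) and Pck1 maternal, and so did stearoyl-CoA desaturase (Scd2 at 14.73 and 14.52 against 7.85 and 7.89, and Scd1 at 11.10 and 11.33 against 13.44 and 13.25). The aldolase genes Aldoa (-1.49 and -1.80) and Aldoc (-3.02 and -2.37) were fetal. These values are of the brightest probe, and the weakest measured probe gave -0.37 for Aldoc, -0.35 for Hk1 and -0.65 for Pygb. Against this pattern, the liver phosphofructokinase gene Pfkl (-1.49 and -1.5) and Pgam1 (-1.24 and -1.11, no call with the 75th percentile scaling) were fetal, and Kyat1 of the first group was maternal (1.68 and 1.38). The lactate transporter gene Slc16a3 (-4.31 and -4.38) was fetal, and Slc16a1 (-0.80 and -0.42) and Ldha (-0.41 and -0.69) were not called. Khk, which phosphorylates fructose, was maternal (2.38 and 2.25). Red cells and leukocytes also make Hk1, Pkm and Slc2a1, and the part of the blood cell genes' differences given above in these was not tested.

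**Figure D4:**
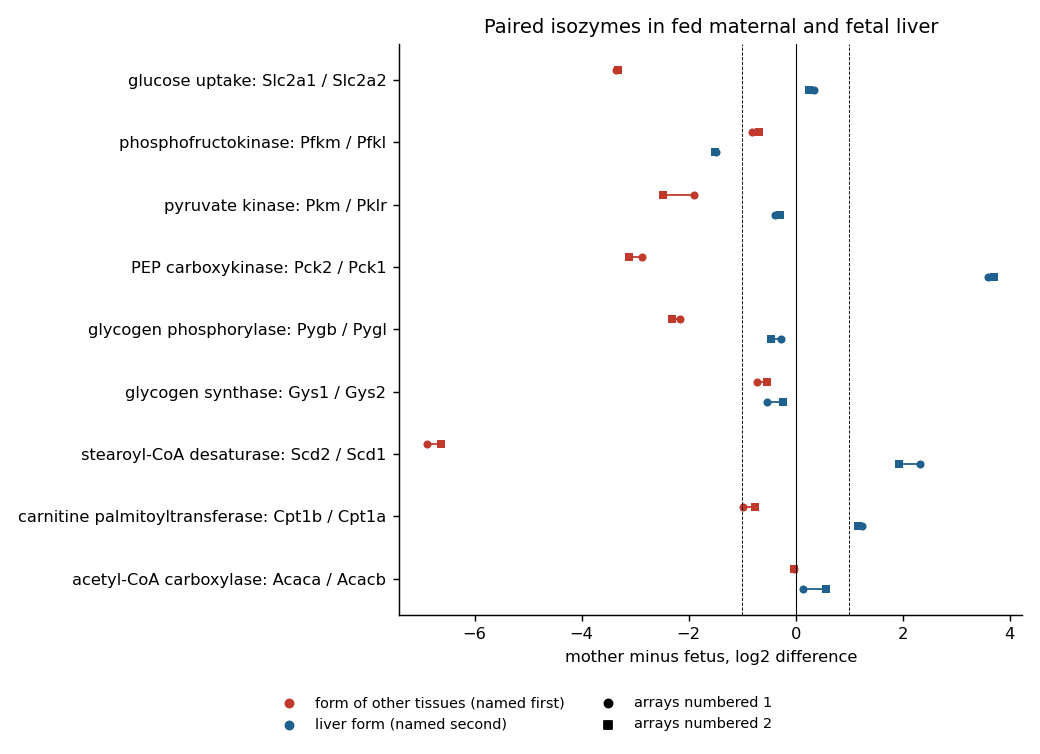
Log2 difference, mother minus fetus, for 9 pairs of isozyme genes chosen from the isozyme lists. Circles are arrays numbered 1 and squares arrays numbered 2, joined by a line, and dashed lines are at 2-fold. The form labelled as of other tissues (red) lies left of the form labelled as of liver (blue) in every pair drawn except phosphofructokinase. For glycogen synthase it lies within 0.4 of the liver form. Neither acetyl-CoA carboxylase gene was called (means -0.03 for Acaca and 0.35 for Acacb), and which of them is the liver form is uncertain. Of pairs not drawn, Pgam2 (mean -0.64) lay right of Pgam1 (-1.17), and Ldhb (-0.76) left of Ldha (-0.55).

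In glucose release and glycogen, 6 of 28 genes were maternal and 1 fetal. The alanine aminotransferase gene Gpt was at 8.45 and 8.41 against 12.99 and 13.18 (25.2-fold), Gpt2 differed by 1.71 and 1.95 and Got1 by 1.65 and 1.78, and the glycogenin gene Gyg was fetal (-1.75 and -1.78).

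Lipid genes diverged by pathway. Of 49 fatty acid oxidation genes 26 (53.1%) were maternal and 1 fetal (median 1.01). Acot3 (4.05 and 4.12), a peroxisomal thioesterase gene, Cyp4a10 (2.87 and 3.80), Cyp4a12a (3.12 and 2.87, with its other probe at -1.77), the thiolase gene Acaa1b (2.83 and 2.92) and Slc27a5 (2.91 and 2.61) led, and Cpt1a, the entry step into mitochondria, was 2.30-fold higher in the mother. Oxct1, which lets tissues burn ketone bodies and is scarce in adult hepatocytes, was the fetal one (-2.61 and -2.33). Ppara, the receptor that drives these genes, was not called (0.73 and 0.60). Of 29 fatty acid and triglyceride synthesis genes 8 were maternal and 5 fetal. The lipogenic regulator gene Thrsp (3.52 and 3.98), Me1 (2.26 and 2.16), Scd1, the carbohydrate-sensing factor gene Mlxipl (2.18 and 1.85) and the desaturase gene Fads1 (1.56 and 1.41) were maternal, and Scd2, Mogat2 (-3.77 and -3.63), Elovl7, Elovl6 (-1.75 and -1.80) and Pnpla3 were fetal. Fasn (-0.67 and -0.80) and Srebf1 (-0.25 and -0.23) were not called.

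Of 26 cholesterol synthesis genes 6 were fetal and 2 maternal, with a median of -0.11 that turned to 0.05 under the 75th percentile scaling. Lss (-2.67 and -2.64), Sqle (-1.68 and -1.40) and Fdps (-1.47 and -1.45) were among the fetal ones, and Acat2 (3.50 and 3.30) and Insig2 (2.49 and 2.53), which restrains the pathway, were maternal. Of 24 apolipoprotein and lipoprotein genes 12 were maternal and none fetal (median 0.97). Apon (16.6-fold), Apoc3 (15.9-fold), Apoa4 (10.9-fold), the sterol exporter gene Abcg5 (10.5-fold) and Saa4 (7.46-fold) led, while Apoa1, the main protein of high density lipoprotein, was at 15.03 and 15.27 in the fetus and 15.20 and 15.39 in the mother.

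Of 32 bile acid synthesis and transport genes 21 (65.6%) were maternal and 2 fetal (median 1.27). The uptake transporter genes Slco2b1 (5.14 and 4.97), Slco1a4 (3.98 and 3.97) and Slco1a1 (3.38 and 3.28), the oxysterol hydroxylase gene Cyp7b1 (4.77 and 5.21) and the conjugating enzyme gene Baat (3.45 and 2.98) were maternal, and Abcg2 (-1.59 and -1.5) and Cyp39a1 (-1.63 and -1.21) fetal. Cyp7a1, the rate-limiting enzyme of the classical pathway, was 1.80-fold higher in the mother (0.73 and 0.97) and not called.

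Most genes of the enzymes that oxidise and conjugate foreign compounds and steroids were maternal, with shares below the 84.6% of the amino acid breakdown list. Of 44 measured cytochrome P450 genes 35 (79.5%) were maternal and none fetal (median 2.59). Cyp4f14 was at 6.31 and 6.45 in the fetus and 13.94 and 13.57 in the mother, Cyp2b9 at 7.55 and 7.60 against 14.07 and 14.38 (101-fold), Cyp2b13 65.9-fold and Cyp2c54 34.5-fold higher in the mother. Of 45 conjugating enzyme genes 37 (82.2%) were maternal and 3 fetal (median 1.92). Inmt, Nnmt, the sulfotransferase genes Sult2a2 (6.91 and 6.91, with its other probe at 0.98) and Sult3a1 (5.65 and 5.74) and Ugt2a3 (5.67 and 6.08) led. The exceptions were Mgst2, a membrane-bound glutathione transferase gene, at 11.85 and 11.71 in the fetus and 6.39 and 6.15 in the mother (45.7-fold higher in the fetus), Gstm5 (-2.27 and -2.37) and Mgst3 (-2.09 and -2.14), all 3 of them glutathione transferases. Close relatives in the Cyp2b, Cyp2c, Cyp3a, Sult and Ugt families can share probe signal, and their single values are uncertain for that reason. The letters TGGACTTTG, a direct repeat bound by HNF4, were on either strand in 19.1% of the 47 P450 genes with a promoter in the table, against 0.381% of all promoters and 0.393% of those of measured genes, and the P450 genes stand in clusters of related sequence.

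Genes that adult mice express by sex were mostly maternal, whichever sex they mark. Of 29 genes known as female-predominant in liver 22 (75.9%) were higher in the mother and 1, Hao2, in the fetus (median 2.76), and of 20 known as male-predominant 12 (60.0%) were higher in the mother and none in the fetus (median 1.22). Sult2a2, A1bg, Cyp2b9 and Cyp2b13 were among the leaders of the first list, A1bg at 5.95 and 5.96 in the fetus and 12.90 and 12.78 in the mother (118-fold, from a fetal level well above background on 1 of 2 arrays). Mup1, Mup3, Cyp7b1, Ugt2b1 and Slco1a1 led the second. Hao2 was close to the threshold (-1.03 and -0.99) and lost its call under 4 alternatives.

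Iron genes went both ways. Of 26 measured genes of iron and metal handling 5 were fetal and 4 maternal. The mitochondrial iron importer gene of red cell precursors, Slc25a37 (-5.02 and -5.22), the transferrin receptor gene Tfrc (-2.62 and -2.45), the copper pump gene Atp7a (-2.74 and -2.88), Slc39a5 and Slc11a2 (probes from -1.66 to 0.69, no call as a mean over probes) were fetal, and the liver's copper pump gene Atp7b (2.59 and 2.74), Tmprss6, a brake on hepcidin (1.77 and 1.25), Tfr2 and Hamp2 were maternal. Hamp, which encodes hepcidin itself, the hormone that closes the iron exporter, was at 10.89 and 11.48 in the fetus and at 11.97 and 12.18 in the mother, 1.85-fold higher and not called. Its neighbour and paralog Hamp2 differed 484-fold. The promoters of the pair are shown because the genes behaved so differently while their upstream windows are alike. Both lie on the - strand of chromosome 7 in GRCm38.p6, at chr7:30944030-30944279 for Hamp and chr7:30924182-30924431 for Hamp2, and neither holds GTTAAT.
Hamp: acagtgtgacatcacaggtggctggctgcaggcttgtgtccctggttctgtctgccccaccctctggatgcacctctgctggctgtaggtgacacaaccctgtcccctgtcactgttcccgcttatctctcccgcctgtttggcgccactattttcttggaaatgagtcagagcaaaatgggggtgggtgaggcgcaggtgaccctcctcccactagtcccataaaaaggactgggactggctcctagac
Hamp2: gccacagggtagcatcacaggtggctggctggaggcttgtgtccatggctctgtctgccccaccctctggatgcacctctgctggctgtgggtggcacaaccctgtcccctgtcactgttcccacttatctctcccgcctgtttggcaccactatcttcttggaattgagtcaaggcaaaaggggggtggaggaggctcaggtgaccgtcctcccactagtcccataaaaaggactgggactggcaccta
In a global alignment of 253 positions the windows were identical at 227 of them (89.7%).

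Transcription factors had smaller medians than the P450 and conjugating enzyme lists. Of 32 liver transcription factor genes 12 were maternal and 1 fetal (median 0.71), with Klf9 (1.96 and 1.94), Nr0b2 (1.66 and 2.15), Tbx3 and Zbtb20 (1.67 and 1.61), a repressor of Afp, among the largest maternal and Cebpd as the fetal one (-1.09 and -1.57). Cebpa (0.52 and 0.54) was not called. Of 27 nuclear receptor genes 13 (48.1%) were maternal and 1 fetal (median 0.89). Rxrg (3.33 and 3.32), Nr1i3, the receptor that senses drugs and induces Cyp2b genes (3.35 and 3.18), the oestrogen receptor gene Esr1 (2.52 and 2.58), Nr1d2 (2.14 and 2.46) and Nr1d1 (1.86 and 2.31) were maternal, and Thra was fetal (-1.28 and -1.25), without a call as a mean over probes. Of 15 clock genes 8 were maternal and 2 fetal (median 1.03). Dbp, a clock output factor, was at 8.24 and 8.21 in the fetus and 10.91 and 11 in the mother (6.63-fold), and Per1 (-1.04 and -1.08) and Per2 (-1.0 and -1.01) were fetal by little more than 2-fold. The sources used here do not give the hour of sampling, Per2 had a probe at 0.59, and Nr1d1 and Clock lost their calls as means over probes.

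Immune genes of the interferon and antigen presentation list went both ways. Of 38 measured 12 were maternal and 7 fetal. The class II genes Cd74 (2.69 and 2.35), H2-Ab1 (2.10 and 1.85) and H2-Eb1 (1.92 and 1.63), the class I gene H2-D1 (1.98 and 1.63) and the chemokine gene Cxcl9 (2.39 and 2.13) were maternal. The interferon-induced gene Rsad2, at 12.96 and 12.82 in the fetus and 8.55 and 8.93 in the mother (17.7-fold), was fetal with Isg15 (-3.65 and -3.63), Usp18, Irf8 and Oasl2.

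Of 61 ribosomal protein genes 15 (24.6%) were fetal and none maternal, with a median of -0.72, and the largest were Rpl31 (-1.75 and -1.86) and Rps19 (-1.57 and -1.63). This median moves with the scaling, to -0.25 at the 75th percentile, where Rpl35 and Rpsa lose their calls. Of 47 oxidative phosphorylation genes 3 were maternal and none fetal (median 0.23), among them Uqcrb (2.25 and 1.59) and Sdha (1.40 and 1.34, lost as a mean over probes).

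The summed level of the red cell list was 371 and 350 in the fetal channels and 60.4 and 55.2 in the maternal ones, in units of 1000 intensity units, and that of granulocyte genes was 124 and 112 against 2.54 and 2.46. The adult hepatocyte list summed to 290.2 and 337 in the fetus and 689 and 726 in the mother, while the endothelial list was at 26.7 and 25.1 against 31.8 and 30.9. The part of the changed mixture of cells in the hepatocyte genes' differences was not tested.

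The food-deprived pools on the same arrays gave the same contrast in RNA that the comparison above did not use. They share the arrays and the normalisation with the fed pools and are given as a description. There 1595 of 17317 genes were higher in the mother (9.21%) and 2060 higher in the fetus (11.9%). Of the 2068 fed calls toward the fetus that were measured in both, 1734 were called the same way in the food-deprived pools, which is 83.8% of the fed calls and 84.2% of the food-deprived ones. Of 1836 fed calls toward the mother 1235 were called there too, 67.3% of the fed and 77.5% of the food-deprived calls. The list medians were -3.26 for erythroid and -3.06 for cell cycle genes in the food-deprived pools, near the fed values of -3.47 and -2.92. The median of amino acid breakdown genes was 0.95 there and 1.63 in the fed pools, that of urea cycle genes 0.62 and 1.42, and that of fatty acid oxidation genes 1.72 and 1.01. Pck1, for example, differed by 1.17 and 0.94 in the food-deprived pools and Inmt by 4.67 and 4.25, both less than in the fed ones, and Apoa4 by 6.41 and 6.81, more than its 3.17 and 3.73 in the fed ones. Xist differed by 6.3 and 5.4 in the food-deprived pools and by 2.7 and 2.3 in the fed ones. The Y-linked Eif2s3y differed by -4.7 and -4.6 in the food-deprived pools and by -4.3 and -4.4 in the fed ones. The sex of the fetuses is not given, and whether the fetal pools differed in it was not tested. None of these pairs of values was tested against each other.

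**Figure D5:**
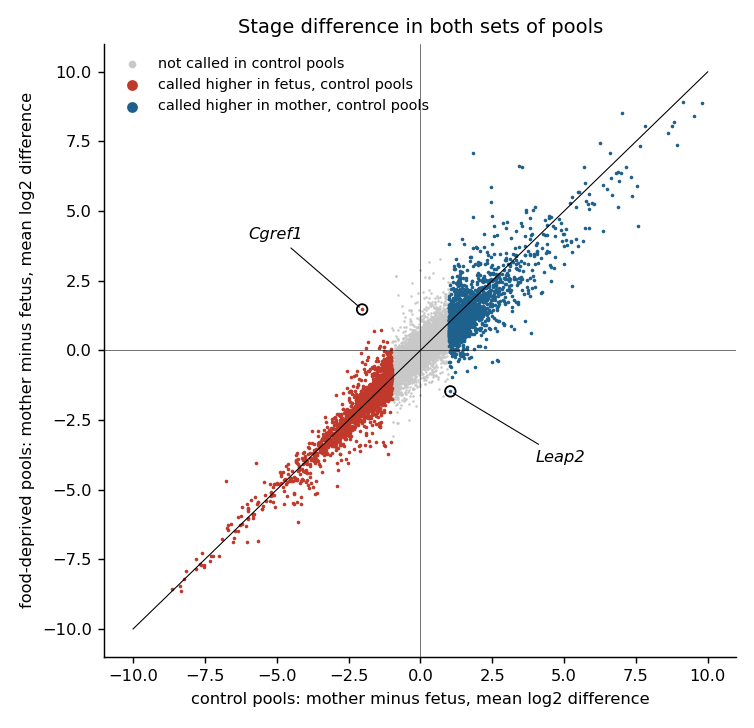
Mean log2 difference, mother minus fetus, in the fed control pools (horizontal) against the food-deprived pools (vertical), 1 point per gene measured in both, coloured by the call in the control pools, with the line of equality. Of 2068 genes called fetal in the control pools 2056 lie below 0 in the other pools and of 1836 called maternal 1801 lie above it, and Leap2 and Cgref1 are circled as the 2 genes called in opposite directions.

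For 47 genes the orientations differed by more than 2 on the log2 scale, and 4 of these were called. Pmvk was at 5.92 and 11.80 in the fetus and 11.94 and 12.04 in the mother, Gclc at 10.85 and 5.81 against 12.50 and 12.54, Elovl1 at 11.58 and 11.38 against 6.81 and 11.11, and Rpl24 at 11.43 and 9.97 against 8.56 and 11.86. In the first 3 of these a single array stood apart from the other 3. Of 1531 called genes with more than 1 measured probe, 143 had probes on both sides of 0. Among genes named above whose other probes were not yet given, the weakest measured probe was under 2-fold for Myb (-0.46), Rag1 (-0.31), Nusap1 (-0.66), Vcam1 (-0.91), Atp7a (-0.72), Mgst3 (-0.24), Igf2bp1 (-0.47), Elovl7 (-0.60), Irf8 (-0.71) and Ddx3y (-0.78). The same held on the maternal side for Otc (0.77), Zbtb20 (0.42), Xist (0.79) and Jchain (0.93). The lower of the 2 stages was well above background on 1 of its 2 arrays for Csta2, Trim10, Camp, Gata1, Igf2bp3, Hells, Slc2a3 and Rxrg, so their differences rest on levels at the edge of what was measured.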

How the data were processed

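Each of the 4 arrays of 1 slide carried control and food-deprived liver RNA of 1 stage in 2 dyes. The deposited scanner files hold spot intensity values from Agilent Feature Extraction (9.5.3.1 per the submitters' processing notes, 9.5.1.1 per the file headers), not normalised between arrays; the gene annotation is of build mm7 per the file headers. The 4 columns of the deposited log2 ratio table compare dyes within arrays and were not used.

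In limma 3.58.1 (R 4.3.3), mean signals were corrected with normexp (offset 50) against the local background median, which was replaced by the array's median where a spot's net signal was under -20, then loess within arrays and Aquantile between them. The offset shrinks differences of dim genes. Spots flagged as outliers (215 to 257 of 43379 gene spots per array) were left out, which removed 5.85% of the brightest 10% of probes and 0.135% of the others. The brightest measured probe stood for a gene. Of 41174 probes 22951 were named by accession through RefSeq (GRCm38.p6), 6659 and 3109 by symbol or unique synonym, and 8455 kept the file's name. The calling procedure was run on simulated data as a check of the computation. That check does not measure how reliable the calls in these data are. Sums of levels are in units of 1000 normalised intensity units.

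The comparison, the 44 gene lists and the genes were chosen with earlier results of these data known. Named genes were the 10 largest calls and 8 largest bounds in each direction, up to 5 per list and direction, all members of the globin, isozyme, LIN28/HMGA/IGF2BP, urinary protein and sex chromosome lists, and markers at or near background. Alb, Ttr, the fibrinogen genes, Hamp, Leap2, Cgref1, Ppara, Cyp7a1, Fasn, Srebf1, Cps1, Cebpa, Apoa1, Ccnd1, Cdk1, Alas2, Epor, Gata1, Klf1, Pecam1, Clec4f, Adgre1, Ms4a2, Mcpt4, Fcer1a, Cpa3, Mcpt8, Hdc, Cma1, Cd3d, Cd3g, Lck, Gzma, Gzmb, Nkg7, Insr, Igfbp2, Pmvk, Gclc, Elovl1, Rpl24 and the genes of 1 orientation were named after their values were seen. Alternatives were other background, scaling, filter and probe rules, leaving out each orientation and, chosen after seeing the data, keeping flagged spots. Some genes are not reported here.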

Additional observations from a re-analysis of the deposited data

Results flagged for a closer look

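In 2 genes the fed and the food-deprived pools were called in opposite directions. Leap2, which encodes a liver-secreted peptide that blocks the ghrelin receptor, was higher in the mother in the fed pools (1.06 and 1.02) and higher in the fetus in the food-deprived pools (-1.36 and -1.58), a gap of 2.51 between the means. Cgref1, a cell growth regulator gene, was higher in the fetus in the fed pools (-1.49 and -2.57) and higher in the mother in the food-deprived pools (1.70 and 1.23), a gap of -3.5. Both orientations went one way in the fed pools and the other way in the food-deprived ones, which the rule for a call requires. The difference was not tested. These 2 were singled out from 16979 genes for this pattern. With quantile normalisation within each dye Leap2 was no longer called in the fed pools.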

How the results depend on the processing

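No paired analysis was possible because no test was run: each difference was already taken between arrays of the same number. With the scanner's processed signals in place of normexp, 3463 genes were higher in the mother and 3649 in the fetus, and in the food-deprived pools 3188 and 3558; 3874 of the 3909 calls were kept in direction and 2 reversed. Under the other alternatives run on the fed pools the counts stayed within 1.5 times those reported. Fewer of the 3909 calls were kept under some of them: 3362 as means over probes and 3436 with all 4 arrays well above background. With the 75th percentile scaling 3589 were kept. With stained backgrounds left as deposited 3441 were kept, although no channel had more than 6 such spots. None was reversed under these. Leaving out 1 orientation gave 1850 to 1953 genes higher in the mother and 2108 to 2124 in the fetus, and 1669 to 1697 and 2100 to 2127 in the food-deprived pools. E2f8 turned to -3.24 with processed signals and Onecut1 to -0.72 as a mean over probes. Itgb3 turned to 2.18 with flagged spots kept, which was tried after seeing the data. The cause was not tested. Of 2743 alternative values of 279 named called genes 2695 kept the call, and 31 genes lost it somewhere. The calls of Slamf1, Hlf, Per1 and Per2 were among those lost when stained backgrounds were left as deposited. Signal over background limits what the dimmest genes can show.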
